A study of Gallus gallus with 6 samples.

Results

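Transcripts of 62 regulators of the cell division cycle were followed in DT40, a line of chicken B cells whose labelled organ of origin is the bursa of Fabricius and which an avian leukosis virus transformed. They are the genes that the array's annotation names as cyclins, cyclin-dependent kinases (CDKs), genes of the CDKN group, CDC25 phosphatases, E2F and DP transcription factors and the pocket proteins RB1, RBL1 and RBL2. The gene CDKN1A was not included. Genes whose names begin in the same way but which only bind these proteins, such as CDK5RAP2, fall under the same naming rule and are described apart. The 62 genes have 134 of the 38439 tested probe sets, and they are among 13009 named genes. Each gene is represented by its brightest probe set over the 6 samples unless stated, and 41 of the 62 have more than 1. Among other genes, those named CDK2, CDK4, CCNT1, CDC25B, CDC25C, E2F2 and TFDP1 were not analysed here.

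The study compared 3 wild-type DT40 samples with 3 samples of genotype Pax5-/-, called Pax5-deficient here. Both groups carry the same label of genetic modification, gene knock out, and the genotype label separates them. Per the labels' protocols, 2 constructs, Pax5-neo and Pax5-bsr, each with a selection cassette between stretches of the chicken Pax5 sequence, were electroporated into DT40 cells and stable transfectant clones were selected. It is not stated whether 1 clone gave all 3 Pax5-deficient samples, and effects of selection and of the loss of PAX5 cannot be told apart. Biological replicates is the term of the design text, with no word on separate cultures, so a p-value here covers the spread among these arrays, which may be technical.

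In the textbook scheme, D-type cyclins with CDK4 or CDK6 begin to phosphorylate the pocket proteins in G1 phase, which frees E2F factors to switch on genes of S phase. E- and A-type cyclins then carry the cell through DNA replication, and B-type cyclins with CDK1 bring it into mitosis. Inhibitors of the CDKN1 and CDKN2 groups hold the kinases back, and CDC25 phosphatases activate CDKs. PAX5, a transcription factor that keeps B cells in their lineage, is not itself part of this machinery.

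The array values are log2 expression values, and a difference is always Pax5-deficient minus wild type on that scale. Array medians lay between 3.95 and 4.02, and between 52.4% and 55% of probe sets lay above background, which was taken in each array as the 95% point of 689 viral probe sets (3.83 on average). Correlations across probe sets were 0.9909 to 0.9959 within the groups and 0.9781 to 0.9806 between them. The 1 of 4 probe sets of PAX5 that passed read 4.55, 4.41 and 4.30 in wild type and 3.86, 3.55 and 3.34 in Pax5-deficient samples, and the other 3 did not pass. The brightest of these lay higher in all Pax5-deficient samples (0.24 ± 0.09, adjusted p = 0.136), and since the places of the probe sets against the targeted part of PAX5 are not given, they check the labels only in part. Of 12 measured B cell markers, 11 were above background in every group and EBF1, a transcription factor, lay at background in the 3 Pax5-deficient ones, and 9 markers fell and 2 rose. The 9 T cell markers had a mean level of 4.72 to 4.83 in wild type and 4.67 to 4.72 in Pax5-deficient samples, with CD3D high in all (11.11 to 11.56) and CD4, CD28 and TRAT1 at background, while CD3E fell (-0.51 ± 0.13) and CD8A rose (0.52 ± 0.12). The 8 myeloid markers had a mean of 5.54 to 5.66 and 5.19 to 5.23, with LYZ and MARCO at background. Of these CEBPB, CTSS and SPI1 fell (-1.75 ± 0.19, -1.64 ± 0.15 and -1.04 ± 0.12) and TIMD4 rose (1.27 ± 0.18). The 4 erythroid and thrombocyte markers, with GP9 at background, had a mean of 4.81 to 4.99 and 4.82 to 5.05, and none passed in limma, with or without adjustment. The 9 fibroblast and stromal markers had 4.90 to 5.03 and 4.94 to 5.07, with DCN, LUM and PDGFRA at background, VIM lower (-0.88 ± 0.11) and COL1A2 higher (0.50 ± 0.10), both past the threshold. The part of any of these lists in the results below was not tested. Less RNA per cell and fewer cells in a phase of the cycle cannot be told apart in such bulk samples.

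Of the 62 regulators, 15 fell and 5 rose in Pax5-deficient cells at a limma adjusted p under 0.05, and 42 did not pass. Over all 13009 named genes 9.74% fell and 6.01% rose, or 15.8% in either direction. The falls were those of CCNA1, CCNA2, CCND2, CCNE2, CCNF, CCNG2, CCNI, CCNY, CDK6, CDK19, CDK5RAP2, CDKN1B, E2F1, E2F4 and RBL1. The rises were those of E2F7, TFDP2, CCNG1, CCNI2 and CDK2AP1. The fall was at least 2-fold for 6 and the rise for 1, and the other 13 changes were smaller. The median difference was -0.11 over the 62 genes and 0.03 over all named genes, and 41 of the 62 (66.1%) had a difference below 0, against 43.9% of named genes. The 3 Pax5-deficient samples lay wholly below the wild-type samples for 23 regulators and wholly above them for 10. Among named genes the share was 17.5% in each direction and 35% in either. After quantile normalization of the deposited values the split was 12 lower and 8 higher instead of 15 and 5, and 16 of the 20 calls were shared. The median difference of the 62 genes was then still negative, but smaller in size than its spread between replicates (0.039). Over all probe sets 54.3% of the calls were then lower, instead of 63.1%. Of the 62, 56 were above background in both groups, as were 9493 of the named genes. Among the 10140 named genes above background in 1 sample or more, 20.1% passed, 12.4% lower and 7.67% higher. Shares of named genes given below are over all 13009 unless stated, and so take in genes at background.

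**Figure D1:**
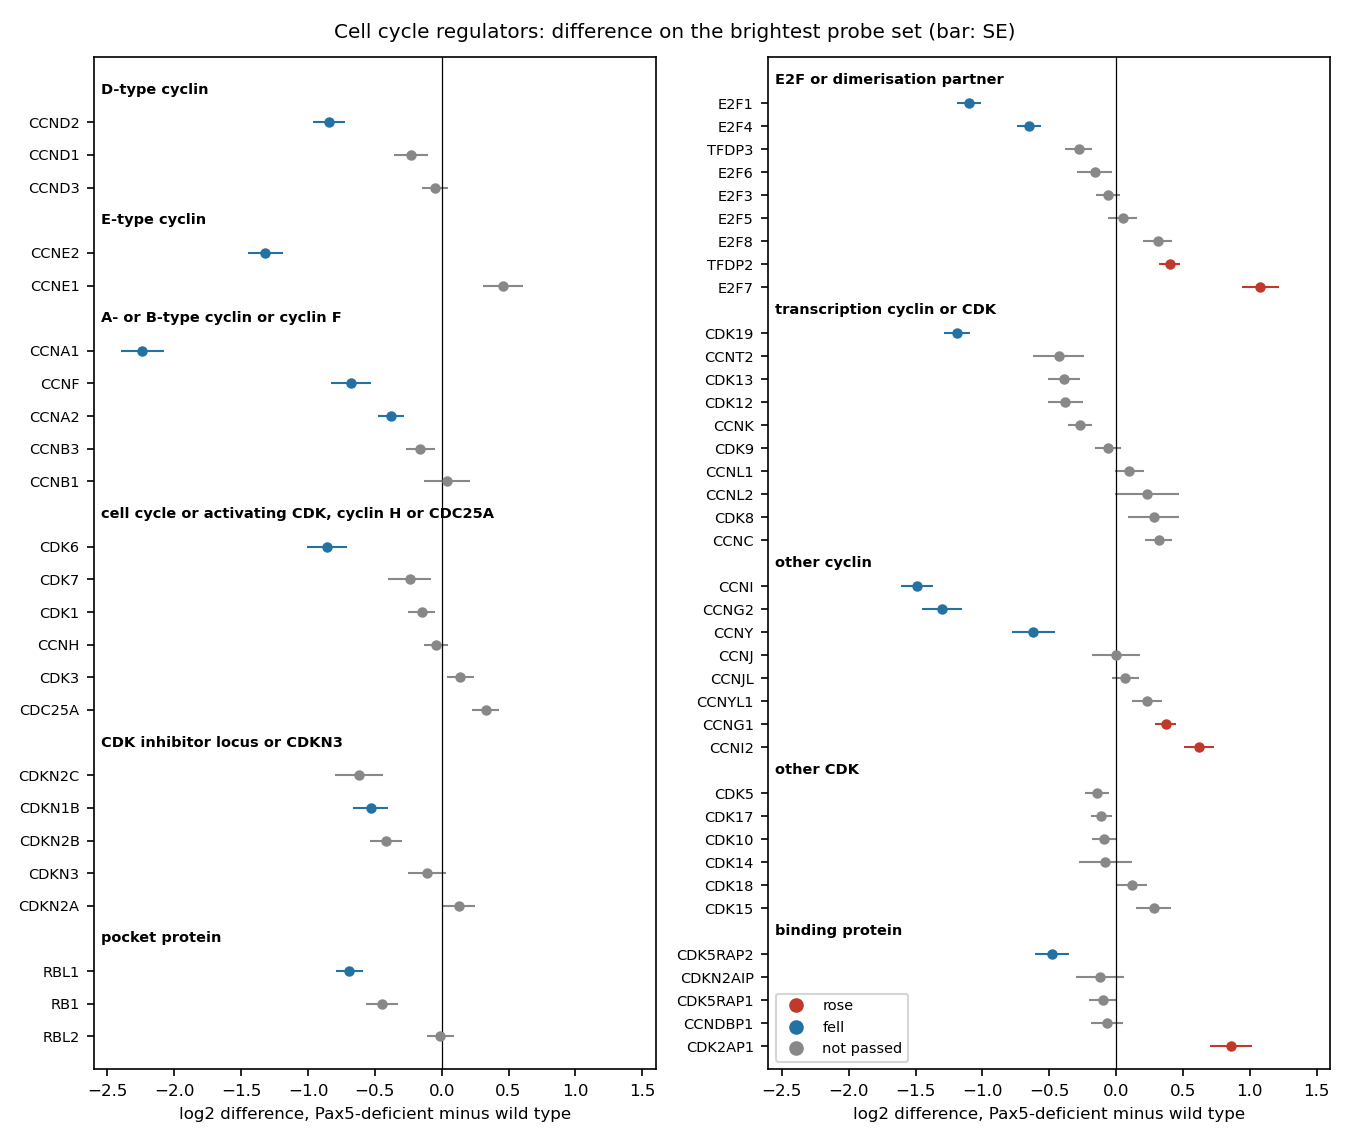
Log2 difference (Pax5-deficient minus wild type, horizontal axis) of the 62 regulators on their brightest probe sets, grouped by role on the vertical axis, with the standard error as a bar. Blue points fell, red points rose and grey points did not pass, and the 15 falls reach from -2.24 for CCNA1 to -0.38 for CCNA2.

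Of the 5 D- and E-type cyclins, 2 fell and 3 did not pass, where 15.8% of named genes passed. CCND2, a D-type cyclin, read 9.52, 9.57 and 9.52 in wild-type samples and 8.85, 8.41 and 8.83 in Pax5-deficient samples. Its groups did not overlap, and it fell by 0.84 ± 0.12 (SE, n = 3 per group), or 1.79-fold (adjusted p = 0.0028). A second probe set of CCND2 fell by 0.98 ± 0.22, and the last, at -0.64 ± 0.22, did not pass. The call of the second was lost without any 1 wild-type sample or without Pax5-deficient replicate 3 (adjusted p = 0.0593 to 0.0805).

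CCND1 did not pass on its brightest probe set, at 9.39, 9.42 and 9.14 against 9.22, 9.22 and 8.82, which overlap (-0.23 ± 0.13). On its other probe set CCND1 read 7.94, 8.05 and 7.70 against 7.36, 7.56 and 7.31 and fell by 0.48 ± 0.12 (adjusted p = 0.0309). That call was lost when any of 4 samples was left out, wild-type sample 1 or sample 2, or Pax5-deficient sample 1 or 3 (0.0835 to 0.127). CCND3, the remaining D-type cyclin, had a difference of -0.05 ± 0.10. So 1 of the 3 D-type cyclins fell on the probe sets that represent the genes.

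CCNE2 and CCNE1, which pair with CDK2 at the start of S phase, stood on opposite sides of 0. CCNE2 had values of 9.79, 9.48 and 9.54 in wild type and 8.18, 8.53 and 8.14 in Pax5-deficient samples, with no overlap between the groups. It fell by 1.32 ± 0.13 (SE, n = 3 per group), or 2.50-fold (adjusted p = 0.000327), and its other probe set fell by 1.54 ± 0.12. CCNE1 read 5.58, 6.11 and 6.12 against 6.32, 6.49 and 6.40, higher in all 3 Pax5-deficient samples, with a difference of 0.46 ± 0.15 that did not pass (adjusted p = 0.0885). The CCNE1 call was made after quantile normalization, with the mean of its 4 probe sets and with the replicate number as a term, where the adjusted p was 0.0263, 0.0407 and 0.047.

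CCNA1 had the largest fall of all 62 regulators on their brightest probe sets. In mammals this A-type cyclin is best known from the male germ line. Its values were 5.63, 6.27 and 5.76 in wild type and 3.73, 3.50 and 3.72 in Pax5-deficient samples, where all 3 lay at background. The fall was therefore at least 4.06-fold (log2 difference -2.24 ± 0.16, SE, n = 3 per group; adjusted p = 5.81e-05). CCNA2, the A-type cyclin of dividing somatic cells, read 9.91, 9.91 and 9.67 against 9.43, 9.45 and 9.48. Its groups were apart by a small margin, and it fell by 0.38 ± 0.10 (adjusted p = 0.0381). This call was lost without any sample but wild-type replicate 3 (0.0719 to 0.149). The other probe set of CCNA2 was at background in all samples.

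The B-type cyclins did not pass. CCNB1, which the RefSeq table also lists under the synonym CCNB2, had 12.49, 12.49 and 12.29 in wild type and 12.47, 12.84 and 12.08 in Pax5-deficient samples, the latter lying on both sides of the former. CCNB3 had a difference of -0.16 ± 0.11. CCNF, a cyclin that serves as the substrate receptor of a ubiquitin ligase, read 8.04, 7.93 and 7.43 against 7.11, 7.12 and 7.12. It fell by 0.68 ± 0.15 (adjusted p = 0.0193) and by 0.77 ± 0.20 on a second probe set, and the third was at background. The first CCNF call was lost without wild-type sample 1 or sample 2, or Pax5-deficient sample 1 or 3 (0.0529 to 0.0894), and the second without any sample but wild-type replicate 3 (0.0521 to 0.146).

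Of the kinases that drive the cycle and their activators, 1 of 6 passed, and these 16.7% are near the 15.8% of named genes. CDK6, the partner of D-type cyclins in blood cells, read 10.32, 10.49 and 10.16 in wild type and 9.72, 9.19 and 9.49 in Pax5-deficient samples, with no overlap. It fell by 0.86 ± 0.15 (SE, n = 3 per group), or 1.81-fold (adjusted p = 0.00572). Of its 4 other probe sets, 2 fell, by 0.82 ± 0.20 and 0.75 ± 0.13, and 2 did not pass (-0.35 ± 0.18 and -0.18 ± 0.15). The fall of 0.82 was lost without wild-type sample 1 or sample 2, or Pax5-deficient sample 2 or 3 (0.0687 to 0.11). CDK1, the mitotic kinase, had a difference of -0.15 ± 0.10 at a level of 11.51 ± 0.10 (SD, n = 3) in wild type. CDK7 and its partner CCNH, which activate other CDKs, had differences of -0.24 ± 0.16 and -0.04 ± 0.09, and CDK3 was at background in all samples. CDC25A, the phosphatase that activates CDK2, read 9.75, 10.01 and 9.80 against 10.17, 10.18 and 10.21, higher in each Pax5-deficient sample, with a difference of 0.33 ± 0.10 that did not pass (adjusted p = 0.0612). It passed under 4 of the alternatives, among them quantile normalization (0.0464) and the fit without wild-type replicate 2 (0.0465).

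Among the CDK inhibitors, CDKN1B fell, which encodes p27. Its values were 7.63, 7.92 and 8.08 in wild type and 7.46, 7.39 and 7.18 in Pax5-deficient samples, and the groups were set apart by less than their own spread. It fell by 0.53 ± 0.13 (SE, n = 3 per group; adjusted p = 0.0317) and by 0.84 ± 0.16 on its other probe set, where it read 7.06, 6.95 and 7.45 against 6.04, 6.46 and 6.45. The first call was lost without wild-type sample 2 or sample 3, or Pax5-deficient sample 3 (0.11 to 0.12), and the second was kept with each sample left out in turn.

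CDKN2C and CDKN2B, inhibitors of CDK4 and CDK6, did not pass. On the brightest probe set CDKN2C read 7.18, 7.15 and 7.29 in wild type and 6.95, 6.13 and 6.70 in Pax5-deficient samples, a difference of -0.62 ± 0.18 (adjusted p = 0.0713). On its other probe set it read 5.18, 4.89 and 5.03 against 5.47, 5.10 and 5.48, a difference of 0.32 ± 0.13 (0.179), so its probe sets had opposite signs. The brightest passed under 2 of 12 alternatives, among them the fit without Pax5-deficient replicate 1 (-0.79 ± 0.16, 0.022). CDKN2B read 4.29, 3.90 and 4.04 against 3.71, 3.52 and 3.74, the last 3 at background (adjusted p = 0.059), and passed under 4 of the alternatives (0.0325 to 0.0483). CDKN2A, its neighbour on chromosome Z, whose product in chicken is the regulator ARF, had a difference of 0.13 ± 0.12 at 11.57 ± 0.08 (SD, n = 3) in wild type. CDKN3, a phosphatase that acts on CDKs, had -0.11 ± 0.14.

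Of the 3 pocket proteins, 1 fell and 2 did not pass, or 33.3% called against 15.8% of named genes. For each of the 3 the probe sets differed. RBL1, or p107, read 9.96, 9.92 and 9.85 in wild type and 9.14, 9.37 and 9.17 in Pax5-deficient samples, and it fell by 0.69 ± 0.10 (SE, n = 3 per group), or 1.61-fold (adjusted p = 0.00201). It has 7 probe sets, the most of any regulator here. Besides the brightest, 2 fell, by 0.46 ± 0.10 and 0.63 ± 0.14, and 4 did not pass, with differences from -0.15 to 0.14. Of these 4, 1 was at background in all samples, and those with mean levels of 4.04 and 3.92 lay near it. The fall of 0.46 was lost without wild-type sample 1 or 2, and that of 0.63 without either of these or Pax5-deficient replicate 1 (0.0568 to 0.0736). With the mean of its 7 probe sets RBL1 did not pass (0.0639).

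RB1 read 7.26, 7.34 and 7.52 against 6.92, 7.13 and 6.72, a difference of -0.45 ± 0.12 just outside the threshold (adjusted p = 0.0538). Its other 2 probe sets had differences of -0.03 ± 0.13 (0.927) and, near background, 0.13 ± 0.11 (0.566), with overlapping groups. The brightest passed under 3 of 12 alternatives, without Pax5-deficient replicate 2 (0.0186), with the arrays centred on their medians (0.0495) and with dim probe sets left out (0.0436). RBL2, or p130, showed -0.01 ± 0.10 on its brightest probe set and -0.21 ± 0.09 on the next, neither of which passed. On its dimmest probe set RBL2 read 6.84, 6.72 and 6.78 against 6.27, 6.26 and 5.85 and fell by 0.65 ± 0.12 (adjusted p = 0.00986). What sets its probe sets apart was not tested.

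E2F1, an activator of the family, had values of 9.88, 9.78 and 9.76 in wild type and 8.60, 8.75 and 8.77 in Pax5-deficient samples. The samples of each group lay within 0.2 of one another, and E2F1 fell by 1.10 ± 0.09 (SE, n = 3 per group), or 2.14-fold (adjusted p = 0.000106). E2F4, which acts mainly as a repressor together with pocket proteins, read 9.15, 9.21 and 9.04 against 8.47, 8.55 and 8.42 and fell by 0.65 ± 0.09 (adjusted p = 0.00179). E2F3, the other activator measured, had a difference of -0.06 ± 0.09.

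E2F7, an atypical E2F that represses E2F1 and its targets in mammals, went the other way. Its values were 4.26, 4.78 and 4.66 in wild type, near the background of the arrays, and 5.61, 5.76 and 5.59 in Pax5-deficient samples. It rose by 1.08 ± 0.14, or 2.11-fold (adjusted p = 0.00123), while its other, dimmer probe set had a difference of 0.24 ± 0.12. E2F8, the other atypical member, read 7.64, 7.42 and 7.38 against 7.74, 7.69 and 7.94, higher in each Pax5-deficient sample, and its 0.31 ± 0.11 did not pass (adjusted p = 0.124). E2F5 and E2F6 had differences of 0.05 ± 0.11 and -0.16 ± 0.13.

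TFDP2, a partner with which E2Fs bind DNA, read 9.71, 9.67 and 9.59 in wild type and 10.04, 10.13 and 10.02 in Pax5-deficient samples. It rose by 0.40 ± 0.08 (SE, n = 3 per group; adjusted p = 0.0161) and by 0.47 ± 0.10 on a second probe set, and 2 others did not pass (0.11 ± 0.14 and 0.36 ± 0.12). The first call was lost without wild-type sample 2 or 3 (0.0603 and 0.0708), and the second without any 1 wild-type sample (0.0564 to 0.0715). The gene annotated as TFDP3 had a difference of -0.28 ± 0.10 (adjusted p = 0.134). Among the 9 E2F and DP genes, then, 2 fell, 2 rose and 5 did not pass, or 44.4% called against 15.8% of named genes.

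**Figure D2:**
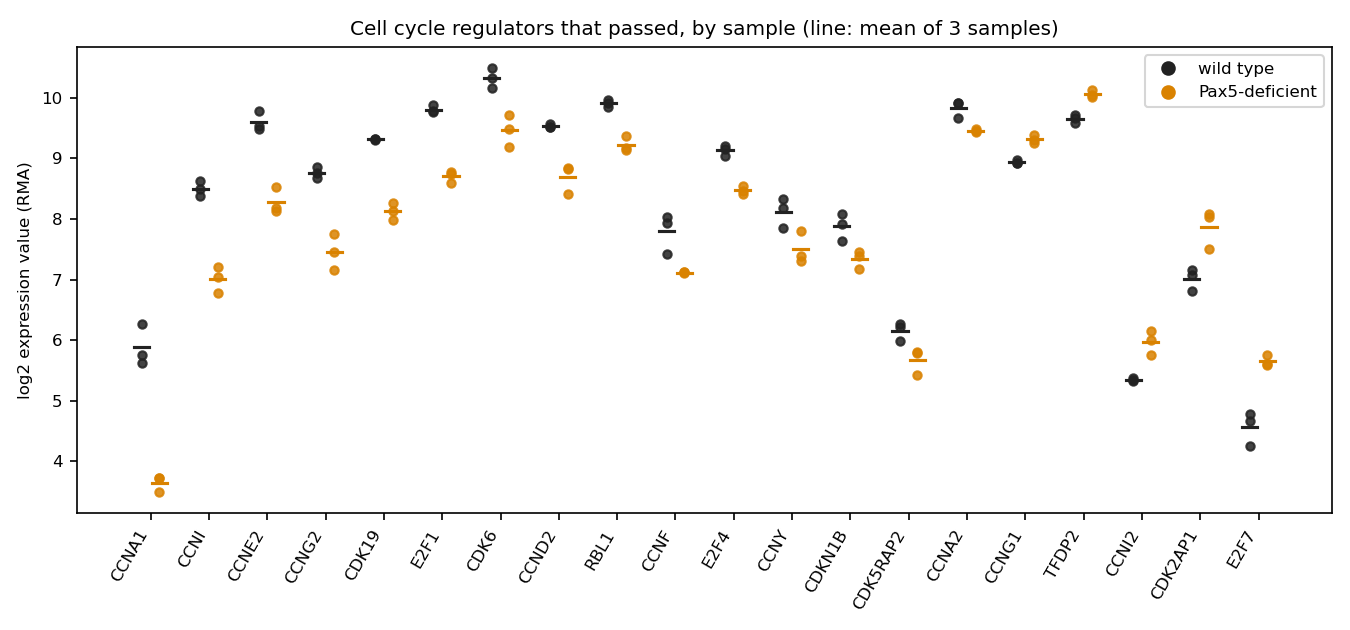
Log2 expression values (vertical axis) of the 20 regulators that passed, 1 point per sample, with black for wild type, orange for Pax5-deficient and a line at the mean of 3 samples. The groups do not overlap for any of the 20, which is no further support, since the 20 were chosen on these same values. The Pax5-deficient points of CCNA1, at 3.50 to 3.73, are the lowest in the plot.

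Of the 10 cyclins and CDKs that serve transcription rather than division, 1 fell and 9 did not pass, or 10% called against 15.8% of named genes. CDK19, a kinase of the Mediator complex, was the one that fell, with 9.32, 9.31 and 9.32 in wild type and 8.27, 7.98 and 8.13 in Pax5-deficient samples. It fell by 1.19 ± 0.10 (SE, n = 3 per group), or 2.28-fold (adjusted p = 0.000105), and its other probe set fell by 1.67 ± 0.11. CDK8, the paralogue that can take its place in Mediator, and their common partner CCNC had differences of 0.28 ± 0.19 and 0.32 ± 0.10, neither of which passed. CCNC read 9.90, 9.97 and 9.94 against 10.13, 10.46 and 10.19, higher in all 3 Pax5-deficient samples, and passed after quantile normalization (adjusted p = 0.0391).

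CCNK, the cyclin of CDK12 and CDK13, differed between its probe sets. On the brightest CCNK read 9.10, 9.19 and 9.35 in wild type and 8.89, 8.99 and 8.95 in Pax5-deficient samples, a difference of -0.27 ± 0.09 that did not pass. On the second it read 8.28, 8.19 and 8.22 against 6.37, 6.49 and 6.65 and fell by 1.73 ± 0.10 (adjusted p = 1.3e-05), a larger fall than on the brightest probe set of any other regulator except CCNA1. The third had a difference of -0.20 ± 0.14. The sources used here do not place these probe sets along the transcript, and what sets them apart was not tested.

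CDK12 and CDK13 had differences of -0.38 ± 0.13 and -0.39 ± 0.12 and passed only when Pax5-deficient replicate 2 was left out (0.0439 and 0.0105). CDK9, the kinase that releases paused RNA polymerase, and CCNT2, a cyclin that pairs with it, had -0.06 ± 0.10 and -0.43 ± 0.19. CCNL1 and CCNL2, cyclins linked to splicing, had 0.10 ± 0.11 and 0.23 ± 0.24.

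Of the 8 cyclins with less settled roles, 3 fell, 2 rose and 3 did not pass, or 62.5% called against 15.8% of named genes. CCNI read 8.49, 8.63 and 8.38 in wild type and 7.04, 7.21 and 6.78 in Pax5-deficient samples. It fell by 1.49 ± 0.12 (SE, n = 3 per group), or 2.81-fold (adjusted p = 0.000127), and its 3 other probe sets, which also fell, had differences of -1.72 ± 0.16, -2.17 ± 0.16 and -2.33 ± 0.13. All 4 calls were kept with each sample left out in turn. Its paralogue CCNI2 read 5.37, 5.33 and 5.34 against 6.0, 5.75 and 6.15 and rose by 0.62 ± 0.11 (adjusted p = 0.00768). The other probe set of CCNI2, near background, had a difference of 0.18 ± 0.15.

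CCNG2 and CCNG1, the G-type cyclins, also moved in opposite directions. CCNG2, linked to cell cycle arrest in mammals, had values of 8.76, 8.86 and 8.67 against 7.16, 7.76 and 7.46. It fell by 1.30 ± 0.15, or 2.46-fold (adjusted p = 0.000655), and by 1.42 ± 0.17 on its other probe set. CCNG1, a target of p53 in mammals, read 8.97, 8.93 and 8.92 against 9.26, 9.38 and 9.30 and rose by 0.37 ± 0.08 (adjusted p = 0.0209). The other probe set of CCNG1 had 0.27 ± 0.10, and the call was lost without any sample but Pax5-deficient replicate 1 (0.0553 to 0.0789).

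CCNY, a cyclin at the cell membrane that activates CDK14, read 8.33, 8.19 and 7.85 in wild type and 7.81, 7.39 and 7.31 in Pax5-deficient samples. The nearest values of the groups differ by 0.04, and CCNY fell by 0.62 ± 0.16 (adjusted p = 0.0448), a call lost without wild-type sample 1 or sample 2, or Pax5-deficient sample 2 or 3 (0.0973 to 0.157). Its other 2 probe sets did not pass (-0.53 ± 0.21 and, near background, 0.01 ± 0.08). CCNYL1 had a difference of 0.23 ± 0.11, CCNJ lay near background with 0.00 ± 0.18 and CCNJL was at background in all samples. None of the 6 other CDKs passed: CDK5, CDK10, CDK14 and CDK17 had differences from -0.14 to -0.08, and CDK15 and CDK18 were at background.

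Of the 5 proteins named for binding to a regulator, 1 rose and 1 fell, or 40% called against 15.8% of named genes. CDK2AP1, which binds CDK2 and is also a subunit of the NuRD chromatin complex, read 6.81, 7.08 and 7.16 in wild type and 8.09, 8.03 and 7.50 in Pax5-deficient samples. It rose by 0.86 ± 0.16 (SE, n = 3 per group), or 1.81-fold (adjusted p = 0.0103), and by 0.89 ± 0.16 on a second probe set, with the third at background. CDK5RAP2, a protein of the centrosome, read 5.99, 6.22 and 6.26 against 5.42, 5.81 and 5.79. It fell by 0.48 ± 0.13 (adjusted p = 0.0458), with -0.46 ± 0.15 and -0.45 ± 0.13 on its other probe sets, which did not pass. The call was lost without wild-type sample 2 or sample 3, or Pax5-deficient sample 1 or 3 (0.0696 to 0.162). CCNDBP1, CDK5RAP1 and CDKN2AIP had differences from -0.12 to -0.07.

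Over all 134 probe sets of the 62 genes, 31 fell (23.1%) and 7 rose (5.22%), against 6.7% and 3.93% of all probe sets tested. A gene with several called probe sets counts more than once here. At background in all samples were 18 of the 134 probe sets and 14923 of all 38439. No gene had probe sets called in both directions. Of the 17 genes that passed and have more than 1 probe set, 11 had another that passed in the same direction. For 3 genes, CCND1, CCNK and RBL2, a probe set other than the brightest passed alone. Of the 18 such calls on other probe sets, 11 were kept with each sample left out in turn, and the 7 others are those named above for CCND2, CCND1, CCNF, CDK6, RBL1 and TFDP2.

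**Figure D3:**
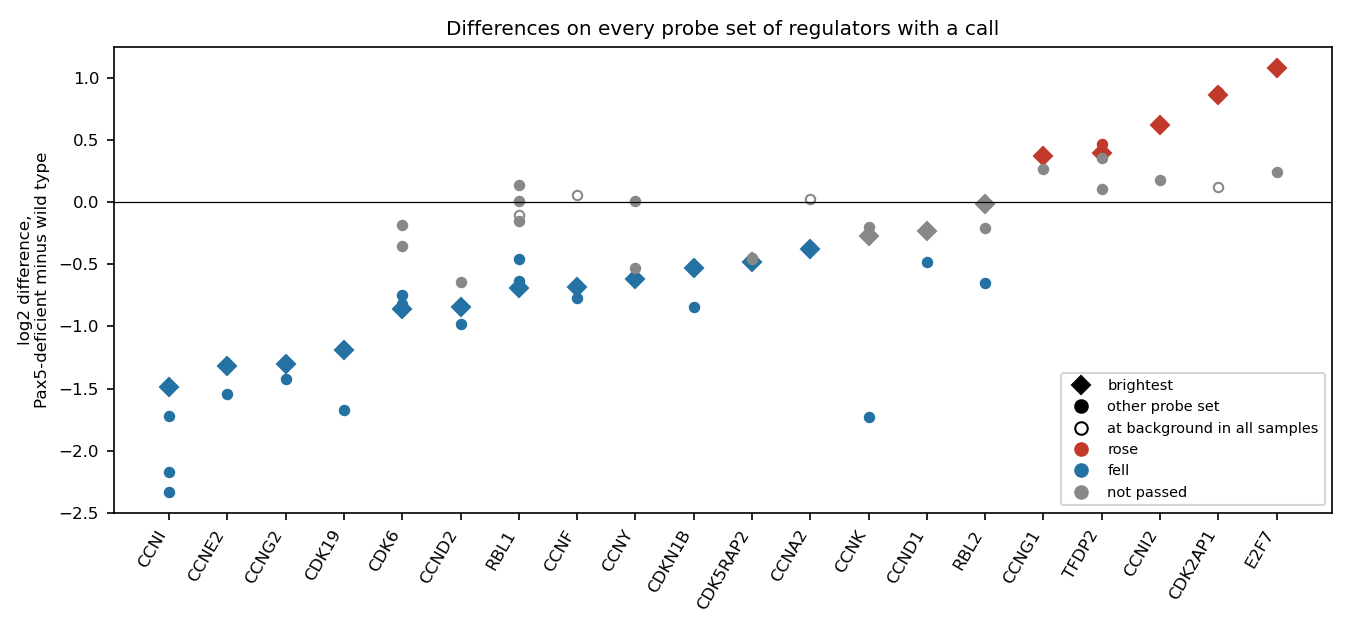
Log2 difference (vertical axis) on every probe set of the 20 regulators that have more than 1 probe set and at least 1 call, with diamonds for the brightest, circles for the others and open circles for probe sets at background in all samples. All 4 probe sets of CCNI lie at or below -1.49, while those of CCNK range from -1.73 to -0.20.

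The regulators that passed lie on 11 chromosomes of the GRCg7b table, and 2 or more share chromosome 1, 2, 4, 13 or 20. Of 34 measured genes that lie next to one of them in the order of protein-coding genes, 7 passed, or 20.6%. That share was 15.8% over all named genes and 20.1% over those above background in 1 sample or more. Of the 7, 5 moved in the regulator's direction. These neighbours were looked up after values were seen. SEPTIN11, next to CCNI, fell by 3.84 ± 0.16 (SE, n = 3 per group), and TP53INP1, next to CCNE2, fell by 2.51 ± 0.10. SPG20, next to CCNA1, fell by 0.86 ± 0.12, and VRK3, next to CCNF, by 0.73 ± 0.09. Against their regulators, KIF3A, next to CCNI2, fell by 0.53 ± 0.12, and FAM133B, next to CDK6, rose by 0.35 ± 0.09.

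On 3 chromosomes the median over all other named genes was raised by over 0.1 in 1 or more Pax5-deficient samples, and 4 regulators lie there. On chromosome 9 the median stood 0.22, 0.17 and 0.17 above the wild-type mean in Pax5-deficient replicates 1, 2 and 3, where TFDP2 stood 0.38, 0.47 and 0.36 above it and CCNL1 -0.07, 0.22 and 0.15. The neighbour of TFDP2, GK5, rose by 0.56 ± 0.12. On chromosome 21 the median was 0.32, -0.01 and 0.25, and CCNL2 had 0.55, -0.41 and 0.56. CCNL2 was thus low in the same replicate in which its chromosome's median was not raised, and without that replicate its difference was 0.56 ± 0.11 and passed (adjusted p = 0.0139). On chromosome 10 the median was raised in replicate 2 alone (0.17), where CCNB1 had 0.42, against 0.05 and -0.35 in replicates 1 and 3. The part of these shifts in the values of single genes was not tested.

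**Figure D4:**
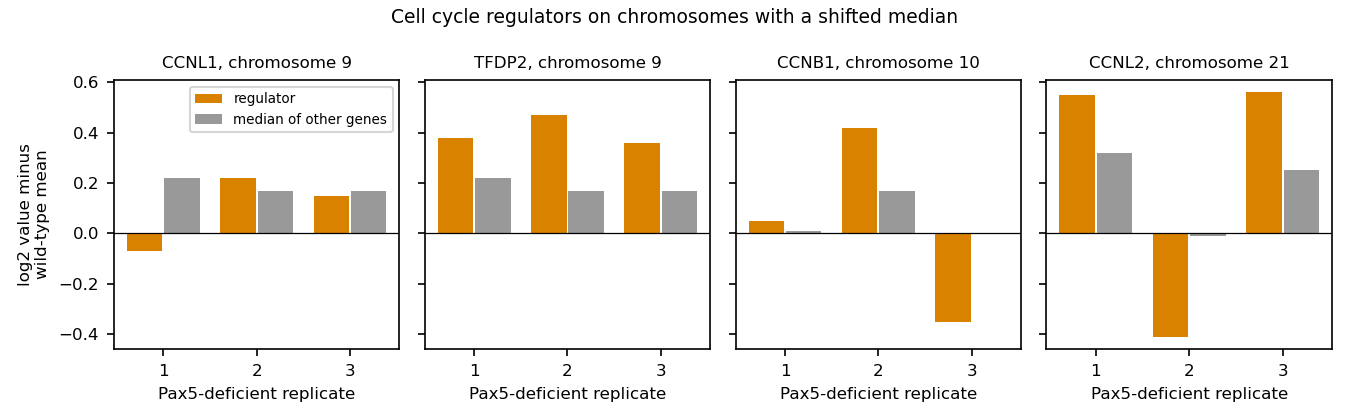
Log2 value minus the wild-type mean (vertical axis) in each of the 3 Pax5-deficient samples for CCNL1 and TFDP2 on chromosome 9, CCNB1 on chromosome 10 and CCNL2 on chromosome 21 (orange bars), beside the median of the other named genes of that chromosome (grey bars). CCNL2 is 0.55 and 0.56 above the wild-type mean in replicates 1 and 3 and 0.41 below it in replicate 2.

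Genes that act beside these regulators were read from lists of their partners and targets, chosen with earlier results of these data known. Of 9 measured genes on a list around the DREAM and MuvB complexes, 3 fell and 6 did not pass, or 33.3% lower against 9.74% of named genes. Among named genes above background in 1 sample or more, 12.4% were lower. The 3 that fell were the transcription factors MYBL1, MYBL2 and FOXM1, by 2.72 ± 0.19, 0.91 ± 0.09 and 0.85 ± 0.10 (SE, n = 3 per group). The 6 others, subunits of the MuvB core and histone deacetylases, did not pass. The median of this list was -0.30, and 5 fell without Pax5-deficient replicate 2.

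Of 27 measured S phase genes known as E2F targets, 12 fell and 15 did not pass, with a median of -0.21. That is 44.4% lower, against 9.74% of named genes and 12.4% of those above background in 1 sample or more. ORC1 and CDC45, which load and start the replication machinery, fell by 1.03 ± 0.12 and 0.95 ± 0.12, and PRIM1, a primase subunit, and MCM2, a helicase subunit, by 0.64 ± 0.10 and 0.49 ± 0.08. The count was 6 without wild-type replicate 2 and 7 without wild-type replicate 3, and these 4 calls were kept in both. Of 22 measured genes of G2 and M phase, 3 fell, 1 rose and 18 did not pass, with a median of -0.24. The 18.2% called are near the 15.8% of named genes. By sign alone, 90.9% of this list lay below 0, against 85.2% of the S phase list and 43.9% of named genes. All genes of both lists were above background in both groups, while 2869 of the 13009 named genes were at background in all samples. MKI67, the proliferation marker, fell by 0.56 ± 0.08, NUSAP1 by 0.77 ± 0.12 and BUB1, a spindle checkpoint kinase, by 0.56 ± 0.11, the last not without wild-type replicate 2 (0.0564). ECT2, which lies on chromosome 9, rose by 0.36 ± 0.09, a call lost without any sample but Pax5-deficient replicate 2 (0.0556 to 0.146).

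Of 14 measured kinases, phosphatases and adaptors that act on CDKs, 2 fell and 12 did not pass, and the 14.3% called are near the 15.8% of named genes. WEE1, which inhibits CDK1, fell by 0.56 ± 0.10, and CDC37, a chaperone adaptor of kinases, by 1.18 ± 0.18 (SE, n = 3 per group). Of 20 measured subunits and partners of the ubiquitin ligases that degrade cyclins and CDK inhibitors, 2 rose, 2 fell and 16 did not pass, or 20% called. FBXW7, which targets cyclin E, rose by 0.62 ± 0.11. The subunits ANAPC13, on chromosome 9, and CDC26 of the anaphase-promoting complex had opposite changes, a rise by 0.91 ± 0.11 and a fall by 0.89 ± 0.11. ANAPC5 fell by 0.46 ± 0.11, a call lost without any 1 wild-type sample or Pax5-deficient replicate 3 (0.0641 to 0.132).

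**Figure D5:**
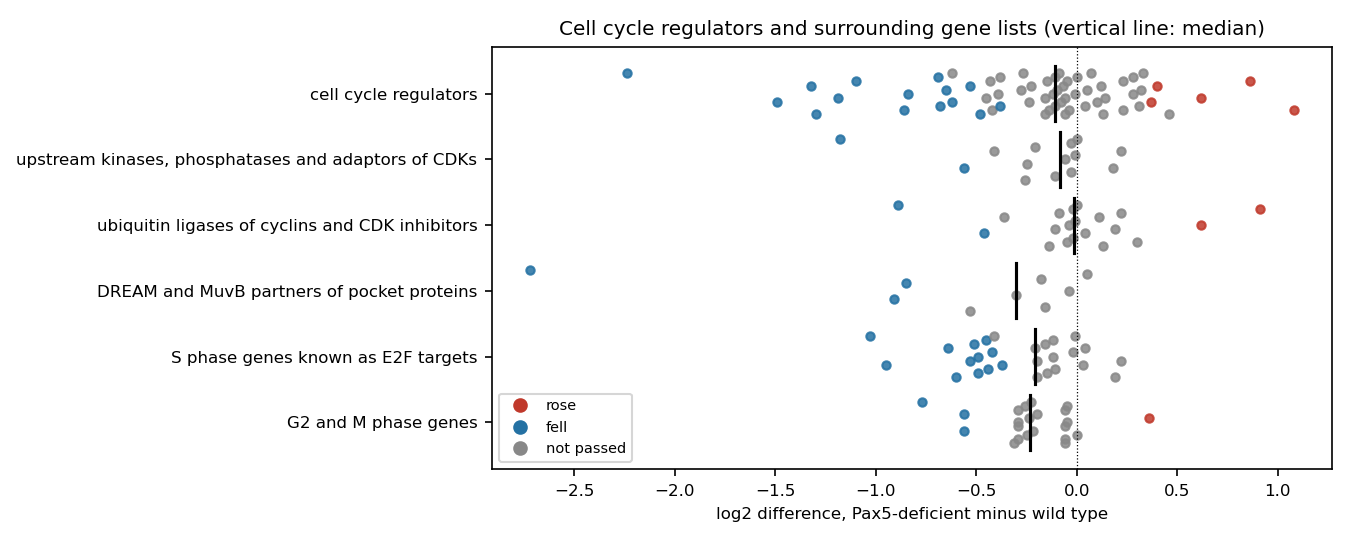
Log2 difference (horizontal axis) of each gene in the 62 regulators and in 5 lists of genes that act beside them (vertical axis), with blue for falls, red for rises, grey for genes that did not pass and a black line at the median. The medians run from -0.30 for the list around the DREAM and MuvB complexes to -0.01 for the ubiquitin ligases.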

How the data were processed

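Total RNA of 6 DT40 samples was labelled with biotin and hybridised to chicken arrays, 1 sample per array. The deposited log2 expression values come from RMA run by the authors, as the submitters' processing notes record. Neither its version nor the probe set definition is stated there. The log2 scale was read from the range of the values, and RMA understates changes of dim genes.

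Of 38535 probe sets, 96 AFFX controls were set aside and 57 reporter controls kept. Genes were named by the platform annotation, with chromosomes and gene order from the RefSeq table of GRCg7b. All 62 regulators have a chromosome there. No coordinates are given because the annotation names no build. Each probe set was fitted with limma 3.58.1 in R 4.3.3 (lmFit with group as the only term, eBayes, two-sided). Adjustment was Benjamini-Hochberg over 38439 probe sets, with a threshold of 0.05. Every adjusted p in the text is limma's. Standard errors are moderated. Background was set after values were seen. Where all 3 samples of 1 group lie at or under it, the fold is a lower bound that takes, per sample of that group, whichever of its value and background is higher. The fit was tested on simulated data. Samples were grouped by title.

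The regulators, the lists and the tests were chosen with earlier results of these data known. All 62 regulators are accounted for, those with a call are given by sample, and up to 4 genes of each list are named by smallest adjusted p. Alternatives were quantile normalization, median centring, a filter on dim probe sets, the mean of probe sets, another variance model, the replicate number as a term and leaving out each sample. The number of arrays limits the precision. Promoter motifs, named in the plan, were not analysed here.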

Additional observations from a re-analysis of the deposited data

How the results depend on the processing

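Of the 20 calls among the 62 regulators, 11 were kept under all 12 alternatives, 9 were lost under 1 or more and 0 turned direction. The 11 were CCNA1, CCND2, CCNE2, CCNG2, CCNI, CDK19, CDK2AP1, CDK6, E2F1, E2F4 and E2F7, and 10 other regulators passed only under an alternative. CCNA1, E2F1 and E2F4 have 1 probe set each, so for them the mean of probe sets used the same values. Leaving out 1 sample gave 14 to 21 calls in all, 10 to 16 lower and 3 to 5 higher, and a median of -0.16 to -0.09. The count of 3 higher came without wild-type replicate 3, when CCNG1 and TFDP2 were lost. Quantile normalization gave 8 higher instead of 5 and a median of -0.03 instead of -0.11. Over all probe sets it also took the lower share of calls from 63.1% to 54.3%, and the cause was not tested. It ended the calls of CCNA2, CCNF, CCNY and CDK5RAP2 (adjusted p = 0.0545 to 0.0999). The mean of probe sets ended the calls of CCNA2, CCNI2, CCNY, RBL1 and TFDP2 (0.0557 to 0.239). That mean took in a probe set at background in all samples for CCNA2 and RBL1, and a probe set near background for CCNI2 and CCNY. Over all probe sets the count of calls was 4085, and 2490 without wild-type replicate 2. With the 99% point as background 56 regulators were above it in a sample instead of 58. An alternative chosen after seeing the data, which counts only the 57 regulators above background in all 3 samples of a group, could not alter the counts of 15 lower and 5 higher, since all 20 called regulators meet it, CCNA1 through its wild-type samples alone, and it says nothing on stability.

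The replicate numbers were not taken to pair the samples. Deviations from the group means correlated at 0.115, 0.072 and -0.007 for numbers 1, 2 and 3, and wild-type replicate 3 correlated best with Pax5-deficient replicate 2. With the replicate number as a block, 21 regulators passed, 15 lower and 6 higher, and 18 of the 20 were among them. Changes of dim genes such as E2F7 and CDKN2B are limited by their signal over background.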
